A study of Homo sapiens with 16 samples.

Results

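Genes of cholesterol efflux and of the liver X receptors (LXRs), namely ABCA1, ABCG1, NR1H2, NR1H3, MYLIP, LPCAT3, NPC1 and NPC2, were followed through HL-60 cells given lipoteichoic acid (LTA), a cell wall glycolipid of Staphylococcus aureus. All 8 were found by symbol among 23575 genes of a raw count table. They were chosen by name with the 24 h dose values of the differentiated cells in view, so those values are given as a description with no test. HL-60 is a human promyelocytic leukaemia line. Differentiated, neutrophil-like cells (dHL-60) were collected after 4 or 24 h, untreated or with 1 or 10 µg/ml LTA, in 6 groups of 2 libraries. Undifferentiated cells (uHL-60) were collected after 4 or 24 h with 1 µg/ml LTA or untreated, in 4 groups of 1 library. All came from this 1 line, and the sources used here do not give the agent that differentiated the cells. The labels do not say whether 2 libraries of a group had cultures of their own, so the spread behind each p-value may be a technical one.

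Cells export surplus cholesterol through ABC transporters. ABCA1 passes cholesterol and phospholipid to lipid-poor apolipoprotein A-I, and ABCG1 promotes efflux to high-density lipoprotein. LXRα (NR1H3) and LXRβ (NR1H2) are nuclear receptors that bind oxysterols and, paired with RXR, switch on both transporters. Their targets also include MYLIP, also called IDOL, a ubiquitin ligase that limits the uptake of lipoprotein cholesterol, and LPCAT3, an enzyme that places polyunsaturated chains in phospholipids. NPC2 and NPC1 act in turn to carry cholesterol out of the lysosome, which supplies the sterol that the rest of the system handles. In macrophages, Toll-like receptor signals are known to interfere with LXR target expression.

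LXR and RXR bind a direct repeat of a hexamer with a spacer of 4 bases (DR4), written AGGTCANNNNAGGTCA. The promoter windows of RefSeq (GRCh38.p14, 250 bases before to 50 after the start of a gene) held an entry for 7 of the 8 genes, and both strands were searched for the closest match to the 12 fixed letters of this motif. The 2 stretches below are shown because ABCA1 held the closest match among these genes and because MYLIP, like ABCA1, was lower at the higher dose at 24 h. Capitals mark the closest match.
ABCA1 promoter, minus strand, chr9:104928157-104928276: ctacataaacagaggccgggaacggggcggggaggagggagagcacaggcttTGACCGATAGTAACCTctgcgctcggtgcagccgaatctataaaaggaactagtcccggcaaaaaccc
MYLIP promoter, plus strand, chr6:16128867-16128986: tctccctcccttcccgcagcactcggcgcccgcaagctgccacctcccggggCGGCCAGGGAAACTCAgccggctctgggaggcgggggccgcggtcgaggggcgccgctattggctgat
The ABCA1 match lies on the strand opposite to the gene, from base -69 to -54 before the start, and differs from the motif at 2 of the 12 letters. A match that close was held by 2.34% of all 35116 promoter windows. The MYLIP match, from base -167 to -152, differs at 4 letters, and 72.5% of all windows held one as close. The closest match differed at 3 letters in NPC2 (18.6% of windows held one as close) and at 4 letters in NR1H2, LPCAT3 and NR1H3. In NPC1 it differed at 5 letters, as close as in 99.7% of windows. These matches describe letters only and were not tested as binding sites.

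Libraries held 9653374 to 20157081 gene counts. Levels are given as CPM, counts relative to library totals scaled to a common size by TMM factors, and changes as log2 fold change ± SE from edgeR, with a call at an adjusted p under 0.05 over all genes tested. Neutrophil markers (10 genes) summed to 519 to 3720 CPM over dHL-60 libraries and 114 to 144 CPM over uHL-60 libraries, while promyelocyte markers (7 genes) summed to 4870 to 22500 CPM in dHL-60 and 24000 to 26700 CPM in uHL-60. The promyelocyte markers did not all differ the same way between untreated dHL-60 and uHL-60 libraries. MPO (7250 to 18400 CPM in dHL-60, against 22600 and 22800 CPM in uHL-60) and PRTN3 (141 to 1140 CPM, against 2160 and 2150 CPM) were lower in dHL-60, and ELANE (916 to 1770 CPM, against 811 and 800 CPM) and AZU1 (422 to 651 CPM, against 211 and 246 CPM) were higher. In 24 h cultures the summed neutrophil markers were 519 to 530 CPM untreated, 2010 to 2020 CPM at 1 µg/ml and 3520 to 3720 CPM at 10 µg/ml. Fewer cells of a type and less RNA per cell cannot be told apart in these bulk samples.

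At 4 h in dHL-60, ABCA1 was 4.24-fold higher at 1 µg/ml and 3.85-fold higher at 10 µg/ml than in untreated cells, whereas ABCG1, which was scarce throughout, was lower at both doses, with a call at 10 µg/ml that was lost without 1 library. NR1H3 was lower at both doses. NR1H2 was higher by 0.63 at 1 µg/ml and by 0.41 at 10 µg/ml on the log2 scale, with a call at 1 µg/ml only. Each of these receptor calls was also lost without 1 library or another. As a description of the contrast in view when the genes were chosen, ABCA1, ABCG1 and MYLIP were lower at 10 than at 1 µg/ml at 24 h. In that contrast NPC1 and NPC2 were higher by 0.40 and 0.38 on the log2 scale.

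**Figure D1:**
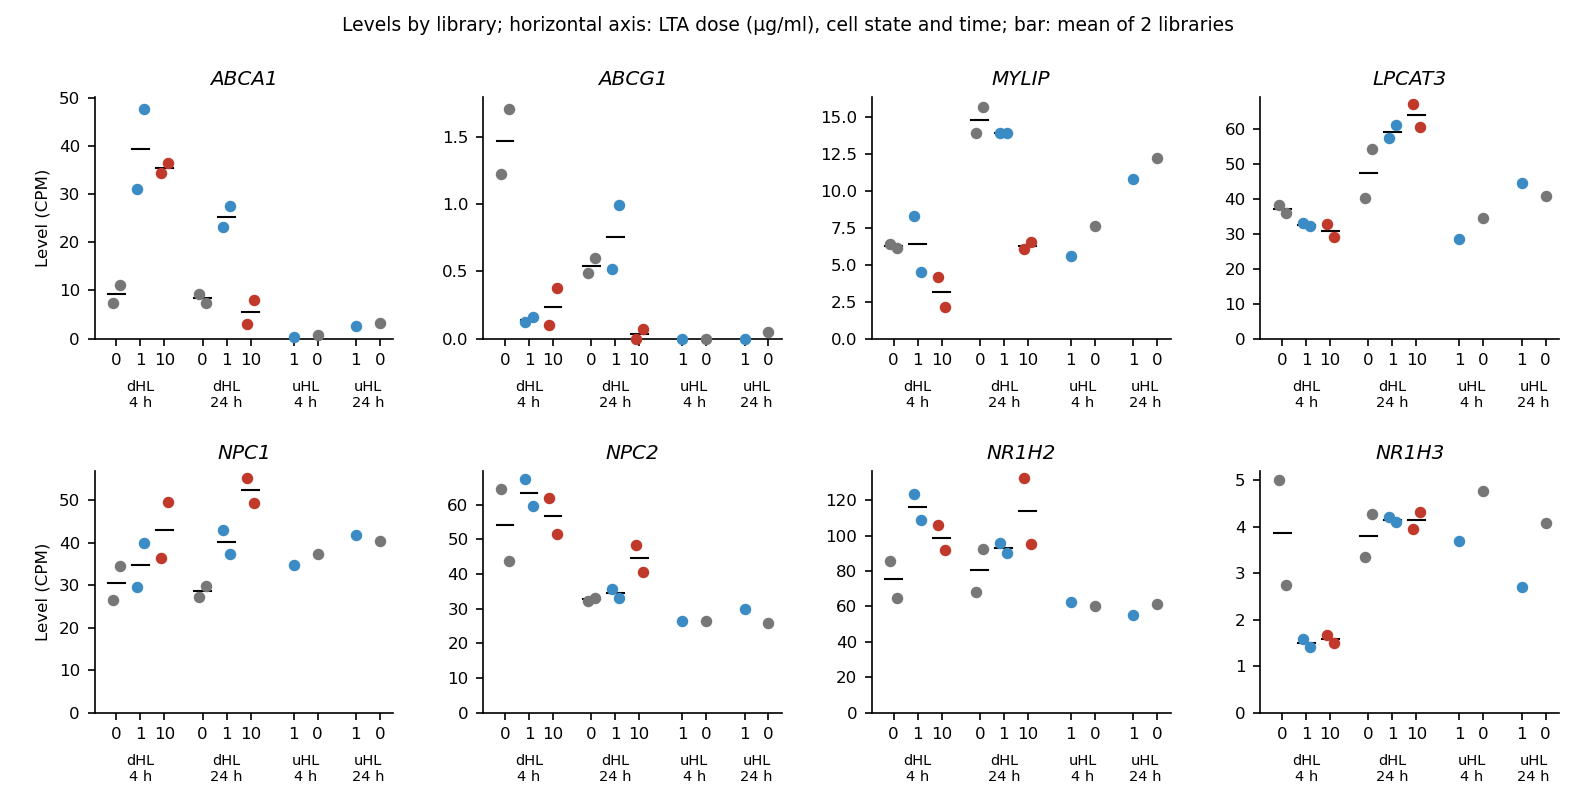
Level of each gene (CPM, linear axis from 0) in each library of dHL-60 and uHL-60, by LTA dose in µg/ml and time, with points for libraries and bars for means of 2. ABCA1 stands at 31.0 to 47.8 CPM with LTA at 4 h in dHL-60, above both untreated libraries, and at 24 h it is highest at 1 µg/ml, at 23.3 and 27.5 CPM.

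ABCA1 (chromosome 9, 104781006 to 104928155, minus strand, GRCh38.p14) had 7.35 and 11.2 CPM in the untreated dHL-60 libraries at 4 h, 31.0 and 47.8 CPM at 1 µg/ml and 34.5 and 36.6 CPM at 10 µg/ml. Every LTA library was above both untreated ones, and the doses overlapped. The log2 fold change was 2.09 ± 0.32 at 1 µg/ml (edgeR, adjusted p = 0.000174) and 1.94 ± 0.32 at 10 µg/ml (edgeR, adjusted p = 0.000289). Between the doses, 10 over 1 µg/ml, the difference was -0.14 ± 0.29, with an approximate 95% interval of -0.71 to 0.43. The summed level of 13 macrophage markers moved with LTA at this time, at 624 to 792 CPM untreated, 1360 to 1400 CPM at 1 µg/ml and 1170 to 1350 CPM at 10 µg/ml. MSR1 was at 0 in each of these 3 groups, and MRC1 was at 0 in the untreated and 1 µg/ml libraries. The part of these marker genes in the ABCA1 difference was not tested. Of 3 red cell markers, the sum was 32.5 to 35.4 CPM untreated, 0.157 to 0.49 CPM at 1 µg/ml and 21.2 to 23.7 CPM at 10 µg/ml. That order is the reverse of the order of the ABCA1 means (9.28 CPM untreated, 39.4 CPM at 1 µg/ml and 35.5 CPM at 10 µg/ml), and the part of the red cell genes in the ABCA1 difference was not tested.

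At 24 h, ABCA1 had 9.21 and 7.47 CPM untreated, 23.3 and 27.5 CPM at 1 µg/ml and 3.03 and 7.94 CPM at 10 µg/ml. The low-dose libraries lay above all others, and the high-dose libraries overlapped the untreated ones. As a description, the log2 fold change was 1.61 ± 0.31 for 1 µg/ml over untreated, -0.56 ± 0.34 for 10 µg/ml over untreated and -2.17 ± 0.33 for 10 over 1 µg/ml, a level 4.49-fold lower. The 10 µg/ml libraries differed 2.62-fold from each other, the widest ABCA1 pair of the 6. Without the higher of them (replicate 2) the differences were -1.44 against untreated and -3.04 against 1 µg/ml, and without the lower one (replicate 1) they were -0.12 and -1.68. The macrophage marker sum at 24 h was 210 to 216 CPM untreated, 856 to 911 CPM at 1 µg/ml and 1700 to 1770 CPM at 10 µg/ml. The part of these genes in the 24 h ABCA1 values was not tested.

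ABCG1 (chromosome 21, 42199689 to 42297244, plus strand) was near the limit of detection, and exceeded the 0.816 CPM needed to enter the test in only 3 of 12 dHL-60 libraries. It entered mainly through the untreated 4 h group, where it was high, so its lower level elsewhere is partly fixed by that filter. Its counts at 4 h were 12 and 20 untreated, 1 and 2 at 1 µg/ml, and 1 and 4 at 10 µg/ml. All 4 LTA libraries lay below both untreated libraries. On summed counts, 3 with 1 µg/ml against 32 untreated, ABCG1 was 10.4-fold lower (95% exact binomial interval 3.24 to 52.9, counting error only). With 10 µg/ml, 5 against 32 counts gave a level 6.24-fold lower (2.41 to 20.5). The fitted log2 fold changes were -3.28 ± 0.74 (edgeR, adjusted p = 0.00315) and -2.57 ± 0.66 (edgeR, adjusted p = 0.00716). With no filter on low counts they were -3.28 (edgeR, adjusted p = 0.00126) and -2.56 (edgeR, adjusted p = 0.0064). The call at 10 µg/ml was lost without replicate 1 of that group (-1.94, adjusted p = 0.0824).

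ABCG1 counts at 24 h were 9 and 8 untreated, 7 and 15 at 1 µg/ml and 0 and 1 at 10 µg/ml. The 10 µg/ml libraries thus held a single ABCG1 count between them. As a description, that count against 22 at 1 µg/ml is a 20.1-fold lower level, and against 17 untreated a 14-fold lower one. The intervals (3.25 to 831 and 2.19 to 584) cover counting error only, not the spread between libraries, and are not a test. The log2 fold change at 1 µg/ml over untreated was 0.51 ± 0.56, with overlapping libraries. Between 24 and 4 h in untreated cells ABCG1 fell by 1.46 ± 0.53 on the log2 scale (edgeR, adjusted p = 0.04). That call was lost with DESeq2 (adjusted p = 0.207), with no filter on low counts (adjusted p = 0.0857) and on leaving out any 1 of the 4 libraries (-1.65 to -1.20).

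The receptor genes also moved apart at 4 h. NR1H3 (chromosome 11, 47248300 to 47269033, plus strand), which encodes LXRα, had 5.0 and 2.74 CPM untreated, 1.59 and 1.42 CPM at 1 µg/ml and 1.66 and 1.49 CPM at 10 µg/ml. The untreated libraries differed 1.83-fold, and both stood above all LTA libraries. The log2 fold change was -1.35 ± 0.35 at 1 µg/ml (edgeR, adjusted p = 0.00753) and -1.26 ± 0.35 at 10 µg/ml (edgeR, adjusted p = 0.0101). Without the higher untreated library (replicate 1) these were -0.85 (adjusted p = 0.0966) and -0.76 (adjusted p = 0.128). The calls were also lost without replicate 2 of the 1 µg/ml group (-1.24, adjusted p = 0.0671) and of the 10 µg/ml group (-1.19, adjusted p = 0.0589). At 24 h NR1H3 had 3.34 and 4.26 CPM untreated, 4.20 and 4.10 CPM at 1 µg/ml and 3.95 and 4.32 CPM at 10 µg/ml. The 3 groups overlapped there, with log2 fold changes of 0.15 ± 0.29 and 0.16 ± 0.29 over untreated. Of NR1H3 exon bases, 4.17% overlap ACP2 on the opposite strand, and whether reads were counted by strand is not known. On the log2 scale ACP2 was higher than untreated by 0.732 (1 µg/ml) and 0.765 (10 µg/ml) at 4 h. At 24 h ACP2 was higher by 0.904 and 1.645 at these doses. The part of ACP2 reads in the NR1H3 values was not tested.

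NR1H2 (chromosome 19, 50376457 to 50383388, plus strand), which encodes LXRβ, had 85.6 and 64.9 CPM untreated at 4 h, 124 and 109 CPM at 1 µg/ml and 106 and 91.7 CPM at 10 µg/ml. All LTA libraries lay above the untreated ones. The log2 fold change was 0.63 ± 0.20 at 1 µg/ml (edgeR, adjusted p = 0.0221) and 0.41 ± 0.20 at 10 µg/ml (edgeR, adjusted p = 0.116). The first call was lost without untreated replicate 2 (0.43, adjusted p = 0.161) or 1 µg/ml replicate 1 (0.52, adjusted p = 0.112). The second value passed without untreated replicate 1 (0.64, adjusted p = 0.0492) and with no filter on low counts (0.41, adjusted p = 0.0428). At 24 h NR1H2 had 68.0 and 92.6 CPM untreated, 95.5 and 90.1 CPM at 1 µg/ml and 132 and 95 CPM at 10 µg/ml, or 0.22 ± 0.20 and 0.53 ± 0.20 over untreated. Per kilobase of exon, the untreated 4 h level was 20 CPM for NR1H2 and 0.854 CPM for NR1H3, so LXRβ was the more abundant receptor RNA.

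**Figure D2:**
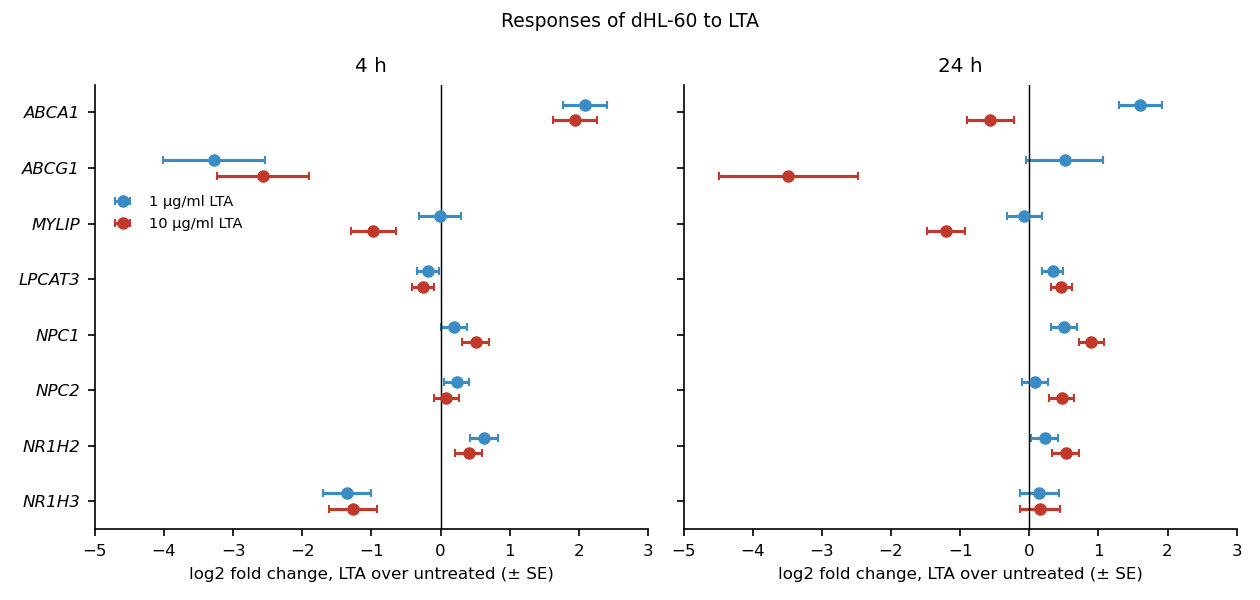
Fitted log2 fold change (± SE) of LTA over untreated dHL-60 at 4 h and 24 h, for 1 and 10 µg/ml. At 4 h the doses lie close for ABCA1 (2.09 and 1.94) and NR1H3 (-1.35 and -1.26), and at 24 h they lie apart for ABCA1 (1.61 and -0.56) and ABCG1 (0.51 and -3.48, the second on 1 count).

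MYLIP (chromosome 6, 16129086 to 16163887, plus strand) passed the test at the high dose at 4 h. It had 6.43 and 6.16 CPM untreated at 4 h, 8.33 and 4.49 CPM at 1 µg/ml and 4.20 and 2.14 CPM at 10 µg/ml. The 1 µg/ml libraries lay on either side of the untreated ones, and the 10 µg/ml libraries below all others. The log2 fold change was -0.01 at 1 µg/ml (edgeR, adjusted p = 0.983) and -0.98 ± 0.33 at 10 µg/ml (edgeR, adjusted p = 0.0274). The second call was lost without untreated replicate 1 (-0.93, adjusted p = 0.0837) or replicate 2 (-1.02, adjusted p = 0.0578), or without 10 µg/ml replicate 2 (-0.57, adjusted p = 0.232). Directly between the doses at 4 h, 10 over 1 µg/ml, MYLIP differed by -0.97 ± 0.33 (approximate 95% interval -1.61 to -0.32), with an unadjusted p of 0.011 in edgeR and an adjusted p of 1. At 24 h it had 14 and 15.7 CPM untreated, 13.9 and 14 CPM at 1 µg/ml and 6.06 and 6.54 CPM at 10 µg/ml. The high dose stood at -1.20 ± 0.27 against untreated and -1.13 ± 0.27 against 1 µg/ml. In untreated cells MYLIP rose by 1.23 ± 0.28 at 24 h over 4 h (edgeR, adjusted p = 0.0032).

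LPCAT3 (chromosome 12, 6976185 to 7018476, minus strand) had 38.4 and 36 CPM untreated at 4 h, 33.1 and 32.4 CPM at 1 µg/ml and 32.7 and 29.1 CPM at 10 µg/ml, with log2 fold changes of -0.18 ± 0.16 (edgeR, adjusted p = 0.379) and -0.25 ± 0.16 (edgeR, adjusted p = 0.218). At 24 h it had 40.4 and 54.4 CPM untreated, 57.5 and 61.2 CPM at 1 µg/ml and 67.3 and 60.8 CPM at 10 µg/ml, or 0.34 ± 0.15 and 0.46 ± 0.15 over untreated. At both times the LTA libraries lay on one side of the untreated ones, below at 4 h and above at 24 h. These values are uncertain, since 65.6% of its exon bases overlap EMG1, a ribosome biogenesis gene, on the opposite strand, and the sources used here do not say whether reads were counted by strand. EMG1 differed by -0.13 ± 0.13 at 1 µg/ml and -0.09 ± 0.13 at 10 µg/ml at 4 h, and by -0.13 ± 0.13 and -0.09 ± 0.13 at these doses at 24 h.

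Of the lysosomal pair at 4 h, NPC1 passed the test at 10 µg/ml and NPC2 at neither dose. NPC1 (chromosome 18, 23506184 to 23586506, minus strand), the lysosomal membrane transporter, had 26.6 and 34.6 CPM untreated, 29.6 and 40.0 CPM at 1 µg/ml and 36.4 and 49.5 CPM at 10 µg/ml. The log2 fold change at 1 µg/ml was 0.20 ± 0.19 (edgeR, adjusted p = 0.449). Only the 10 µg/ml libraries lay above both untreated ones, with a log2 fold change of 0.51 ± 0.19 (edgeR, adjusted p = 0.0458). That call was lost with upper-quartile scaling (0.37, adjusted p = 0.15), with the 4 compared libraries alone (0.50, adjusted p = 0.0554), and without untreated replicate 1 (0.35, adjusted p = 0.255) or 10 µg/ml replicate 2 (0.26, adjusted p = 0.389). At 24 h NPC1 had 27.3 and 29.9 CPM untreated, 42.9 and 37.3 CPM at 1 µg/ml and 55.4 and 49.3 CPM at 10 µg/ml. There its libraries were ordered by dose without overlap, with 0.50 ± 0.19 and 0.90 ± 0.19 over untreated.

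NPC2 (chromosome 14, 74479935 to 74493512, minus strand), the soluble lysosomal sterol carrier, had 64.4 and 43.8 CPM untreated at 4 h, 67.5 and 59.4 CPM at 1 µg/ml and 61.8 and 51.6 CPM at 10 µg/ml. These groups overlapped, at 0.23 ± 0.18 (edgeR, adjusted p = 0.339) and 0.08 ± 0.18 (edgeR, adjusted p = 0.742). Without untreated replicate 1 the first was 0.55 (adjusted p = 0.0384). At 24 h it had 32.3 and 33.1 CPM untreated, 35.7 and 33.1 CPM at 1 µg/ml and 48.3 and 40.7 CPM at 10 µg/ml, the high dose at 0.47 ± 0.18 over untreated. In untreated cells it fell by 0.74 ± 0.18 at 24 h against 4 h (edgeR, adjusted p = 0.00598), a call lost without 4 h replicate 1 (-0.41, adjusted p = 0.102).

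Counted over the 8 genes, 2 were called higher and 2 lower at 1 µg/ml at 4 h, where 38.7% of all genes tested were called, and 2 higher and 3 lower at 10 µg/ml, where 41.3% were. These shares are near the background. The second count was 3 without untreated replicate 1 and 2 without 10 µg/ml replicate 2. Between the doses at 4 h 0 of 8 were called by edgeR and 0 by DESeq2, with 1, MYLIP, at an unadjusted p under 0.05, and 0.00843% of all genes were called. In untreated cells 3 of 8 were called between 24 and 4 h, against 40.9% of all genes, and 1 without 4 h replicate 1. At 24 h the choice of genes used the dose contrasts, so the 8 genes were not counted against a threshold there. Over all genes, 21.2% passed the edgeR threshold at 1 µg/ml, 42.6% at 10 µg/ml and 3.82% for 10 over 1 µg/ml.

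Other genes of sterol handling were followed as 2 lists, and both held genes that moved each way at 4 h. Among 22 further LXR partners and targets, 16 were tested, and 2 rose and 3 fell at 1 µg/ml (median -0.02, against -0.04 over all genes). The lipoprotein lipase gene LPL averaged 45.2 ± 8.82 CPM with 1 µg/ml and 13.0 ± 2.39 CPM untreated (SD, n = 2 each), a log2 fold change of 1.80 ± 0.19 (edgeR, adjusted p = 6.79e-06). MERTK, a receptor for the uptake of dead cells, fell by 1.33, and RXRA, a partner of the LXRs, by 0.57. At 10 µg/ml 2 rose, among them LPL by 1.84, and 2 fell, among them RXRA by 0.57, with a median of -0.03, against -0.04 over all genes. At 1 µg/ml MERTK was not called without either untreated replicate (-1.46 and -1.17) or 1 µg/ml replicate 1 (-0.78), nor with DESeq2 (-1.36, adjusted p = 0.0561) or the 4 compared libraries alone (-1.33, adjusted p = 0.0712).

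Of 27 genes of sterol uptake, storage and transport, 22 were tested, and 6 rose and 8 fell at 1 µg/ml at 4 h (median -0.12), and 7 rose and 8 fell at 10 µg/ml (median -0.13). STARD4, a soluble sterol carrier, averaged 149 ± 21.8 CPM with 1 µg/ml and 18.1 ± 9.52 CPM untreated (SD, n = 2 each), and had a log2 fold change of 3.03 at 1 and 3.56 at 10 µg/ml. CYP27A1, which makes the LXR ligand 27-hydroxycholesterol, rose by 3.02 and 3.19, and INSIG1, which holds SREBP in the endoplasmic reticulum, by 2.48 and 2.84. LRP1, an uptake receptor for lipoprotein remnants, averaged 7.34 ± 1.20 CPM with 1 µg/ml and 47.2 ± 7.4 CPM untreated, a change of -2.67 ± 0.30 (edgeR, adjusted p = 1.16e-05). ABCA7, a transporter related to ABCA1, fell by 1.43 and 1.65 at the 2 doses, and ABCA3 by 1.67 and 1.83. The ABCA3 calls were lost with DESeq2 (-1.69) and without any 1 of the 4 libraries at 1 µg/ml (-2.27 to -1.36), and at 10 µg/ml without either untreated replicate (-1.80 and -1.86) or 10 µg/ml replicate 1 (-1.35). GRAMD1B, which moves sterol from the plasma membrane inward, fell by 1.49 and 1.45, while its relative GRAMD1A rose by 1.75 at 1 µg/ml. Of 20 sterol synthesis genes 10 rose and 1 fell at 1 µg/ml (median 0.52), and 13 rose and 0 fell at 10 µg/ml (median 1.04).

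In untreated cells over time, 4 of the 16 LXR partners and targets rose at 24 h against 4 h and 6 fell (median -0.34, against -0.04 over all genes). FASN rose by 1.24, LPL by 1.18, SCD by 0.82 and NCOR1 by 0.38. MERTK, on 3 counts at 24 h against 90 at 4 h, was 44.6-fold lower (95% exact binomial interval 14.8 to 220), and SMPDL3A, on 2 against 10 counts, was 7.43-fold lower (1.58 to 69.8). FADS2 fell by 1.24. Of the uptake and transport genes 4 rose, OSBPL1A by 1.23, SCARB1 by 0.92, SCAP by 0.56 and GRAMD1B by 0.56, and 4 fell, ABCA7 by 2.39, ABCA3 by 2.07, SOAT1 by 0.86 and OSBPL2 by 0.42 (median 0.00167). Of the synthesis genes 1 rose and 0 fell (median 0.11). Leaving out 4 h replicate 1 ended the calls of SCD (0.56), NCOR1 (0.30), SMPDL3A, GRAMD1B (0.42) and SOAT1 (-0.84), and leaving out 4 h replicate 2 those of SMPDL3A and OSBPL2 (-0.36). Leaving out 24 h replicate 1 ended those of SCD (0.85), NCOR1 (0.42), ABCA3 (-1.55), SOAT1 (-0.86) and OSBPL2 (-0.46). Leaving out 24 h replicate 2 ended those of SCD (0.80), NCOR1 (0.36), SMPDL3A, SCAP (0.40), GRAMD1B (0.32), SOAT1 (-0.84) and OSBPL2 (-0.38). DESeq2 did not call NCOR1 (0.37) or SMPDL3A, the 4 compared libraries alone gave no call for NCOR1 (0.42) or OSBPL2 (-0.39), and OSBPL2 was not called with no filter (-0.40).

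For 10 over 1 µg/ml at 24 h, 0 genes of the other lists passed the threshold downward, where 0.792% of all genes did. Upward, where 3.03% of all genes passed, 2 of 16 LXR partners and targets passed (median 0.24), as did 2 of 22 uptake and transport genes (median 0.04) and 10 of 20 synthesis genes (median 1.18), against a median of 0.00168 over all genes. The fatty acid desaturase genes FADS2 and FADS1 differed by 1.64 and 1.33 between the doses, and CYP27A1 by 1.42. FADS2 averaged 14.7 CPM untreated, 55 CPM at 1 µg/ml and 169 CPM at 10 µg/ml.

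Over untreated cells at 24 h, 7 LXR partners and targets passed upward and 0 downward at 1 µg/ml (median 0.48), and 9 upward and 1, LPL at -0.53, downward at 10 µg/ml (median 0.51). MERTK had 38 counts at 1 µg/ml and 58 at 10 µg/ml against 3 untreated, ratios of 14.1 (4.47 to 71.4) and 23.5 (7.66 to 117). SMPDL3A, a phosphodiesterase gene, had 13 and 34 counts at these doses against 2 untreated, ratios of 7.24 (1.64 to 66) and 20.7 (5.3 to 178). The intervals of both genes cover counting error only and are not a test. FADS2 differed by 1.92 and 3.55 and FADS1 by 1.86 and 3.19. Of the uptake and transport genes 6 passed upward and 3 downward at 1 µg/ml (median 0.27), and 10 and 4 at 10 µg/ml (median 0.44). Upward, these included at 1 µg/ml CYP27A1 (1.55), the cholesterol ester hydrolase NCEH1 (1.23) and ABCA7 (0.84), and at 10 µg/ml CYP27A1 (2.97), INSIG1 (1.5) and STARD4 (1.44). Downward, GRAMD1B stood at -0.89 and -1.20, OSBPL1A at -0.84 and -1.39 and ABCA2 at -0.84 and -1.26 at the 2 doses, and SCARB1 at -0.49 at 10 µg/ml. Synthesis genes passed upward in 3 of 20 cases at 1 µg/ml (median 0.49) and 19 of 20 at 10 µg/ml (median 1.54), with 0 downward. These lists share the contrast that chose the 8 genes and are given as a description.

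**Figure D3:**
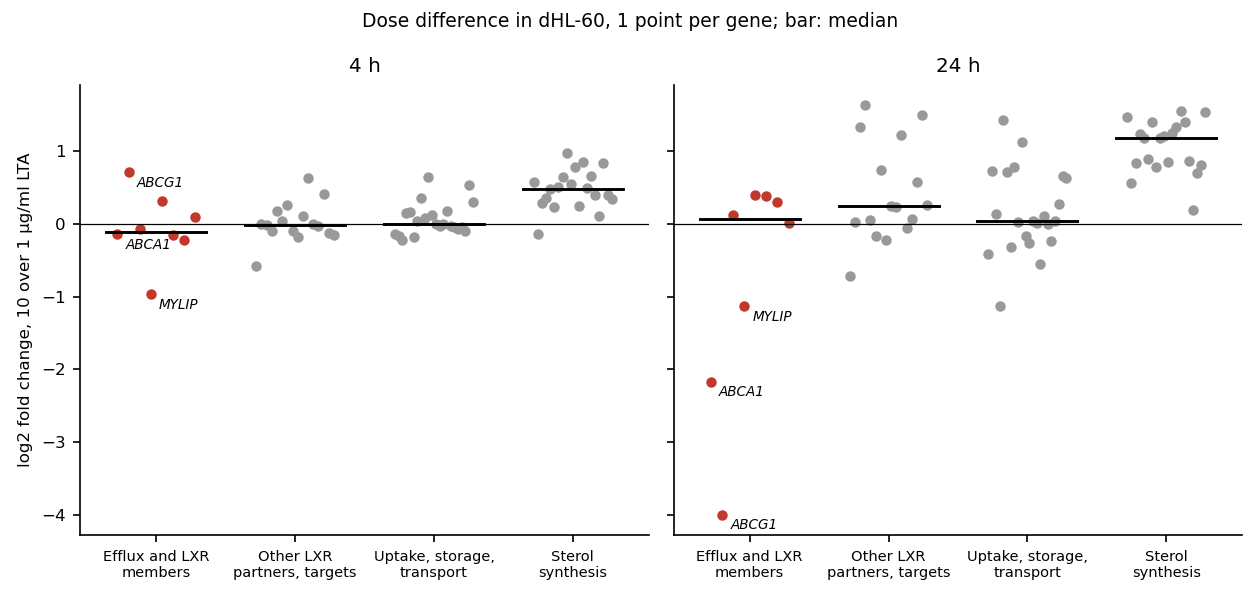
Log2 fold change of 10 over 1 µg/ml LTA in dHL-60 at 4 h and 24 h, with 1 point per tested gene and a bar at the median of each list. At 24 h ABCG1 (-4.00, on 1 count at 10 µg/ml), ABCA1 (-2.17) and MYLIP (-1.13) lie below 0, and the median of the sterol synthesis genes is at 1.18.

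Without LTA, both transporters and NPC2 were higher in dHL-60 than in uHL-60. ABCA1 had 7.35 to 11.2 CPM over the 4 dHL-60 libraries, against 0.751 CPM at 4 h and 3.20 CPM at 24 h in uHL-60, a log2 fold change of 2.24 ± 0.50 (edgeR, adjusted p = 0.00474). ABCG1 had 49 counts in 4 dHL-60 libraries and 1 count in 2 uHL-60 libraries, a ratio of 36.1 (95% exact binomial interval 6.18 to 1450, counting error only). ABCG1 passed the test (edgeR, adjusted p = 0.00239, and 0.000105 with no filter on low counts). It entered the filtered fit through the dHL-60 libraries, where it was high, so the direction of that result is partly fixed by the filter. NPC2 was higher by 0.65 ± 0.24 (edgeR, adjusted p = 0.04), a call lost without any 1 of the 4 dHL-60 libraries (0.48 to 0.73). These were 3 of 8 genes, where 58% of all genes were called. NR1H2 differed by 0.34 ± 0.20 (edgeR, adjusted p = 0.183), NR1H3 by -0.23 ± 0.33 (adjusted p = 0.572), MYLIP by -0.02 (adjusted p = 0.958), LPCAT3 by 0.14 (adjusted p = 0.543) and NPC1 by -0.42 ± 0.18 (adjusted p = 0.0764). A batch common to the uHL-60 libraries and the cell state cannot be told apart.

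Of 17 LXR partners and targets tested between the untreated states, 8 were higher and 5 lower in dHL-60 (median 0.86, against 0.01 over all genes). MERTK had 93 counts in dHL-60 and 0 in uHL-60, at least 22.8-fold higher, taking 3 counts in all as the most that 0 allows. FADS2 was higher by 3.55 and FADS1 by 3.52. APOC2, an activator of lipoprotein lipase, was lower by 8.03, LPL by 1.85, NCOR1 by 1.02 and FASN by 0.73. The untreated dHL-60 groups held only 9 (4 h) and 5 (24 h) APOC2 counts, against 1692 and 1144 in uHL-60. Of 21 uptake and transport genes 8 were higher and 5 lower (median 0.30), led by LRP1 (8.08), ABCA7 (4.22), ABCA3 (3.90) and CYP27A1 (2.55) upward and by SOAT1 (-1.26), GRAMD1B (-1.26), OSBPL1A (-0.88) and SCARB1 (-0.69) downward. In the untreated uHL-60 libraries at 4 and 24 h, LRP1 had only 2 and 6 counts, ABCA3 0 and 3, and CYP27A1 2 and 2. The size of their differences is therefore uncertain. Synthesis genes were higher in 1 case and lower in 12 of 20 (median -0.71). FASN and SCARB1 were not called without either 4 h dHL-60 replicate (FASN -0.55 and -0.74, SCARB1 -0.60 and -0.57) or 24 h replicate 1 (-0.68 and -0.69), nor OSBPL1A without either 4 h replicate (-0.71 and -0.81). Upper-quartile scaling also ended the FASN (-0.60) and SCARB1 (-0.56) calls. The states thus differed in both directions in each list.

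In the uHL-60 libraries ABCA1 had 7 counts with LTA and 15 untreated at 4 h, and 42 counts with LTA and 62 untreated at 24 h. Ratios of the CPM values, LTA over untreated, were 0.538 (95% exact binomial interval 0.185 to 1.4) and 0.822 (0.542 to 1.24). ABCG1 had 0 counts in both LTA libraries, and 0 and 1 count in the untreated libraries at 4 and 24 h. Over both times 0 of the 7 genes tested were called by edgeR and 0 by DESeq2, with NR1H3 (-0.46 ± 0.21) and MYLIP (-0.29 ± 0.14) at an unadjusted p under 0.05, and 0.209% of all genes were called. NR1H3 had 3.69 CPM with LTA and 4.75 CPM untreated at 4 h, and 2.69 CPM with LTA and 4.08 CPM untreated at 24 h. The other genes differed by -0.05 to 0.11 on the log2 scale, apart from ABCA1 at -0.42 ± 0.33. That fit has 1 residual degree of freedom.

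The response of ABCA1 to 1 µg/ml at 4 h was larger in dHL-60 than in uHL-60 by 2.95 ± 1.00 on the log2 scale, which did not pass the test (edgeR, adjusted p = 0.0803). It passed with DESeq2 (3.02, adjusted p = 0.00665), with no filter on low counts (2.96, adjusted p = 0.000241) and without 1 µg/ml dHL-60 replicate 1 (3.25, adjusted p = 0.0479). Here 0 of 8 genes were called by edgeR, 1 had an unadjusted p under 0.05, and 10.3% of all genes were called. ABCG1 is among the 8, but it had 0 counts in both uHL-60 libraries at 4 h. Its difference could not be estimated (SE 7030), so nothing follows from its lack of a call. The uHL-60 groups have no replicate, and their spread was taken to be that of the dHL-60 pairs. Of the other lists, LPL (1.82), STARD4 (3.13), INSIG1 (2.65) and GRAMD1A (1.74) had a higher response in dHL-60, and ABCA7 (-1.81), GRAMD1B (-1.5), ABCA2 (-1.33) and OSBPL1A (-0.95) a lower one. A higher response was called for 1 of 18 LXR partners and targets (median -0.03), and for 4 of 22 uptake and transport genes, with 5 lower (median -0.29). Of the synthesis genes 3 were higher and 0 lower (median 0.61). OSBPL1A was not called without untreated dHL-60 replicate 2 (-0.82) or either 1 µg/ml replicate (-0.91 and -0.95).

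The profile of ABCA1 over the 12 dHL-60 libraries had those of MIR181B1, CPEB4, LRRC8B and TWSG1 among the closest. Closeness was the root mean square difference of log2 CPM after centring each gene on its mean, which ran from 0.516 to 0.603 for these 4 genes, of 11865 compared. CPEB4, which encodes a cytoplasmic polyadenylation element binding protein, averaged 20.1 CPM untreated, 70.3 CPM at 1 µg/ml and 69.7 CPM at 10 µg/ml at 4 h, and 13.9 CPM untreated, 31.9 CPM at 1 µg/ml and 22.3 CPM at 10 µg/ml at 24 h. LRRC8B, a subunit of volume-regulated anion channels, averaged 14.7 CPM untreated, 60.7 CPM at 1 µg/ml and 62.3 CPM at 10 µg/ml at 4 h, and 19.2, 22.5 and 14.9 CPM at these doses at 24 h. MIR181B1 was scarce, at 0.286 to 1.91 CPM. The other 7 genes of efflux and LXR signalling ranked far lower in closeness, from NPC2 at 1.12 (rank 3219) to NR1H3 at 1.70 (rank 10963), and ABCG1 was at 1.60 (rank 10472).

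**Figure D4:**
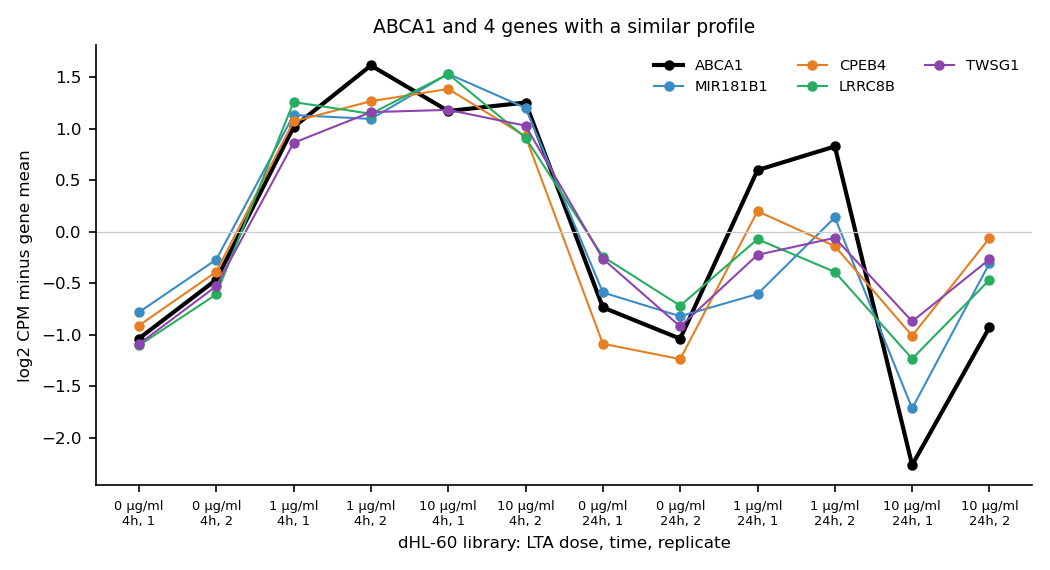
Log2 CPM minus the mean of each gene in the 12 dHL-60 libraries, for ABCA1 and 4 genes with a similar profile. All 5 are high in the 4 libraries with LTA at 4 h, and at 24 h ABCA1 is above the other 4 at 1 µg/ml and below them at 10 µg/ml.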

How the data were processed

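Stranded mRNA libraries were made from total RNA, per the labels. The deposited table holds the authors' raw, unscaled counts per gene. Build GRCh38, edgeR 3.36.0, DESeq2 1.28.0, featureCounts 2.0.1 from Subread, HISAT2 2.1.0 and fastp 0.20.0 are named in the submitters' processing notes, which give no role or order. Groups came from the sample titles. In the uHL-60 columns 1343 of 23575 symbols stood at another position and were realigned to a plain character sort: across genes, the Spearman correlation of dHL-60 with uHL-60 levels over these symbols was 0.228 as deposited and 0.74 realigned, and 0.916 over the others. None of the 8 genes was among them (0).

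Counts were tested with edgeR 4.0.16 (R 4.3.3; quasi-likelihood F test, two-sided, TMM scaling, filterByExpr, Benjamini-Hochberg over all genes tested), on 12 dHL-60 libraries sharing 1 estimate of the spread. Comparisons of untreated states and within uHL-60 had time as an additive term, and the difference between responses was an interaction over 16 libraries. The fit was tested on simulated data. Alternatives were DESeq2 1.42.0, other scaling, no filter, the compared libraries alone, a replicate block and leaving out each library. Libraries of a pair differed beyond sampling noise (chi-square per degree of freedom 10.3 to 18.9). Totals were 9653374 to 20157081 counts, and intervals cover counting error only. Exon overlaps came from GENCODE and gene positions from RefSeq. All 8 genes were named, with up to 4 called genes per direction and comparison from 2 lists and the 5 genes most like ABCA1 in profile. The 8 genes and the lists were chosen with earlier results of these data known. Some genes that these rules name are not reported here.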

Additional observations from a re-analysis of the deposited data

Results flagged for a closer look

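LPCAT3 responses in dHL-60 pointed down at 4 h and up at 24 h in every library at both doses: the response at 24 h minus that at 4 h was 0.52 (0.5231) at 1 µg/ml and 0.71 (0.7149) at 10 µg/ml, and this difference was not tested because it uses the 24 h values. The response of ABCA1 to 1 µg/ml at 24 h was upward in both dHL-60 libraries and downward in the lone uHL-60 pair, a difference (dHL-60 minus uHL-60) of 1.88 that was not tested. Groups of 2 or 1 libraries were too small to look for single libraries that stand apart.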

How the results depend on the processing

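Of the tested values of the 8 genes under each alternative, 411 kept their call or lack of one, 25 lost the call and 7 gained one. Values called in neither fit could change sign and still count as kept. Of the values described, 191 stayed within the error and 22 moved. No called value changed sign. For the named list genes, 507 tested values stayed and 57 lost the call, and 227 described ones stayed and 24 moved. The number of genes called moved by more than 1.5 times as follows. At 10 µg/ml and 4 h (5 genes), leaving out a library gave 2 to 4. Between 24 and 4 h untreated (3), it gave 1 to 3. Counts of the 8 genes in the dose contrasts at 24 h are not given, since the choice of genes used those contrasts. For the difference between responses (0), DESeq2 gave 1, no filter 1 and leaving out a library 0 to 1. The causes were not tested beyond the fewer samples. Replicate numbers were shared between groups. Deviations of same-numbered libraries correlated at -0.204 to 0.383 over 15 pairs of groups (5 over 0.1), so they were not treated as pairs. With the replicate as a block, 4, 5 and 0 genes were called at 1 µg/ml, 10 µg/ml and 10 over 1 µg/ml at 4 h. For 24 over 4 h untreated 3 were called. Over all genes, 10 over 1 µg/ml gave 1 called gene at 4 h and 2 (DESeq2, or the compared libraries alone, or without 10 µg/ml replicate 2) or 22 (no filter). At 24 h it gave 453, against 753 (DESeq2), 1354 (no filter), 800 (compared libraries alone), 191 and 49 (without 1 µg/ml replicate 1 or 2) and 73 (without 10 µg/ml replicate 1). At 10 µg/ml and 4 h 4903 became 3181 without 10 µg/ml replicate 1, between 24 and 4 h 4853 became 3138 without 24 h replicate 1, and at 1 µg/ml and 24 h 2513 became 1451, 1593 and 1139 without untreated replicate 1 or 2 or 1 µg/ml replicate 1. Within uHL-60 23 became 1 with DESeq2. The block moved no all-gene count of the dHL-60 comparisons by over 1.5 times (663 for 10 over 1 µg/ml at 24 h). Taking the uHL-60 columns as deposited ended the INSIG1 interaction call. Upper-quartile scaling moved the median of all genes by -0.117 and -0.134 at 4 h and by 0.124 between cell states. Low counts limit ABCG1 in all groups.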
